A study of Mus musculus with 12 samples.

Results

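A set of 10 genes of the spinal cord that mark motor neurons or build the neurofilaments of large axons were followed in mice in which astrocytes had lost Tardbp, the gene of the RNA-binding protein TDP-43. They were chosen by symbol: Chat, Slc18a3, Slc5a7, Mnx1, Isl1, Nefl, Nefm, Nefh, Prph and Ret. All 10 were found, each in 1 row, among the 36121 genes of the deposited table, and all 10 passed the minimum mean of 1 TPM that 15259 genes passed. RNA was taken from whole spinal cord of 12 C57BL6 mice aged 3 months, 1 library from each mouse. The 4 control mice were Tardbp-fl/fl and carried no Cre. The 4 cHet mice were Gfap-Cre; Tardbp-fl/+, and the 4 cKO mice were Gfap-Cre; Tardbp-fl/fl. All 12 mice therefore carried at least 1 floxed allele, and any effect of the Cre transgene itself is shared by cHet and cKO and absent from control. The Cre was driven by the promoter of Gfap, an astrocyte gene, so motor neurons were not the cells meant to be recombined. The sources used here do not say which exons were floxed, which level of the cord was sampled or whether library strand was kept.

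Motor neurons of the ventral horn signal to muscle with acetylcholine. They make the transmitter with choline acetyltransferase (Chat), load it into vesicles with the vesicular acetylcholine transporter (Slc18a3) and take choline back up with the transporter encoded by Slc5a7. Their large axons are filled with neurofilaments, polymers of a light (Nefl), a medium (Nefm) and a heavy (Nefh) chain, to which peripherin (Prph) and alpha-internexin can be added. Mnx1 and Isl1 are homeodomain factors of motor neuron development, and Ret is the receptor tyrosine kinase for ligands of the GDNF family. Apart from these cells, other cholinergic neurons of the cord use the transmitter genes and many projection neurons make neurofilaments, so none of the 10 is read here as a count of motor neurons.

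Some of these genes share a locus, which bears on how their reads can be assigned. On GRCm38, Chat lies on chromosome 14 from 32408203 to 32465989 on the minus strand, and Slc18a3 from 32462438 to 32464850 on the same strand. Slc18a3 is a single exon that sits inside intron 1 of the transcript Chat-201 and shares 0 exonic bases with Chat; the starts of the genes are 1139 bases apart. Nefm (68082590 to 68124846, minus strand) and Nefl (68083863 to 68089095, plus strand) overlap on chromosome 14 in opposite directions. The transcript Nefm-202 shares 1108 exonic bases with Nefl, which is 32.8% of Nefl, and Nefm-201 shares 0. With the strand setting unknown, reads from those 1108 bases cannot be told apart between Nefm and Nefl.

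The other 6 genes lie apart from each other. Isl1 is on chromosome 13 (116298281 to 116309689, minus strand), Mnx1 on chromosome 5 (29473034 to 29478470, minus strand) and Slc5a7 on chromosome 17 (54273590 to 54299034, minus strand). Prph is on chromosome 15 (99055174 to 99058978, plus strand), Nefh on chromosome 11 (4938754 to 4948064, minus strand) and Ret on chromosome 6 (118151745 to 118197718, minus strand).

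The RefSeq promoter table of GRCm38.p6 held an entry for 6 of the 10 genes. Sequence just upstream of the gene is shown for the nested cholinergic pair, to show their separate annotated starts, and for Prph, the filament gene with the widest difference between cKO and control. Each is written 5′ to 3′ on the strand of its gene. Capitals mark matches, on either strand, to 1 of 3 motifs. The TATA box was searched for as TATAAA. The GC box was searched for as GGGCGG. The core of the cyclic AMP response element was searched for as TGACGT. Chat is shown from 250 to 81 bases before its RefSeq start, the part that lies outside the annotated gene, and the others for 200 bases before their start.
Chat, chr14:32465990-32466159, minus strand: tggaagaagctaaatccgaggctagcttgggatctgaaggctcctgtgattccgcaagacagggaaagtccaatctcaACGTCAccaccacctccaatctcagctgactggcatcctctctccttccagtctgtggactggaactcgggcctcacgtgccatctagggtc
Slc18a3, chr14:32464851-32465050, minus strand: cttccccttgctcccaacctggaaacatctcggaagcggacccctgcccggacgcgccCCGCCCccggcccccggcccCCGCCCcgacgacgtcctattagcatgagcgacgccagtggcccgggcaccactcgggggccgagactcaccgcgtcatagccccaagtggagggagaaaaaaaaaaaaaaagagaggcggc
Prph, chr15:99054974-99055173, plus strand: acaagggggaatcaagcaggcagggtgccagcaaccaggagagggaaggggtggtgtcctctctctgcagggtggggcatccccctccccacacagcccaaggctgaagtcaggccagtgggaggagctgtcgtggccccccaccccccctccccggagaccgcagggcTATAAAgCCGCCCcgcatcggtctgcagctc
The Chat window held 1 TGACGT match, as did 2.95% of promoters in the same window, and neither of the other motifs. The Slc18a3 window held 2 GGGCGG matches, and 31.0% of 32851 promoters held at least 1. The Prph window held TATAAA ending 25 bases before the start, which 9.96% of promoters held anywhere in 200 bases, and GGGCGG 18 bases before it. The E-box, CANNTG, was also searched for on both strands and is not in capitals; it matched 2 times in the Chat window, 1 time in that of Slc18a3 and 0 times in that of Prph, and 58.2% of all promoters held it in 200 bases. These matches describe letters in a window and say nothing of factor binding.

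The values are the authors' normalized TPM, an abundance scaled for transcript length and library, so levels of different genes can be set side by side. Read depth cannot be had from TPM, and no counting interval is given. In each library 15188 to 15384 genes reached 1 TPM. Their summed TPM did differ, from 954895 to 978621 in control, 983452 to 1023990 in cHet and 1017860 to 1048380 in cKO, with no overlap between control and cKO. Mean TPM of Tardbp itself was 171 ± 6.73 for control mice, 170.4 ± 8.64 for cHet mice and 148 ± 5.06 for cKO mice (SD, n = 4; limma adjusted p = 0.0113 for cKO against control). Each genotype held 2 males and 2 females by its labels. The library labelled male that is control replicate 1 held 0.288 TPM of the Y-linked gene Ddx3y, against 30.5 to 36.5 in the 5 other males and 0.336 to 1.15 in the 6 females, and Uty, Kdm5d and Eif2s3y showed the same. It was kept under its genotype label, and results that rest on it are also given without it.

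The 10 genes spanned nearly the whole range of expressed genes. Over the 12 mice Nefm had the highest mean, 1616 ± 89.4 TPM (SD, n = 12), rank 40 among the 15259 genes kept, followed by Nefl at 1239.6 ± 47.2 (rank 60) and Nefh at 559 ± 23.9 (rank 195). Prph stood at 109 ± 10.1 TPM, Slc5a7 at 47.4 ± 5.31, Ret at 41.8 ± 1.53, Slc18a3 at 29.6 ± 2.14 and Chat at 23.6 ± 2.25. The homeodomain factors were lowest, Mnx1 at 3.31 ± 0.380 TPM and Isl1 at 2.31 ± 0.422 (rank 13522). Ranges over mice overlapped between Slc5a7 and Ret, between Slc18a3 and Chat and between Mnx1 and Isl1, and between no other neighbours in this order. Even so, Slc18a3 was above Chat in all 12 mice, Slc5a7 above Ret in 11 and Mnx1 above Isl1 in 11.

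**Figure D1:**
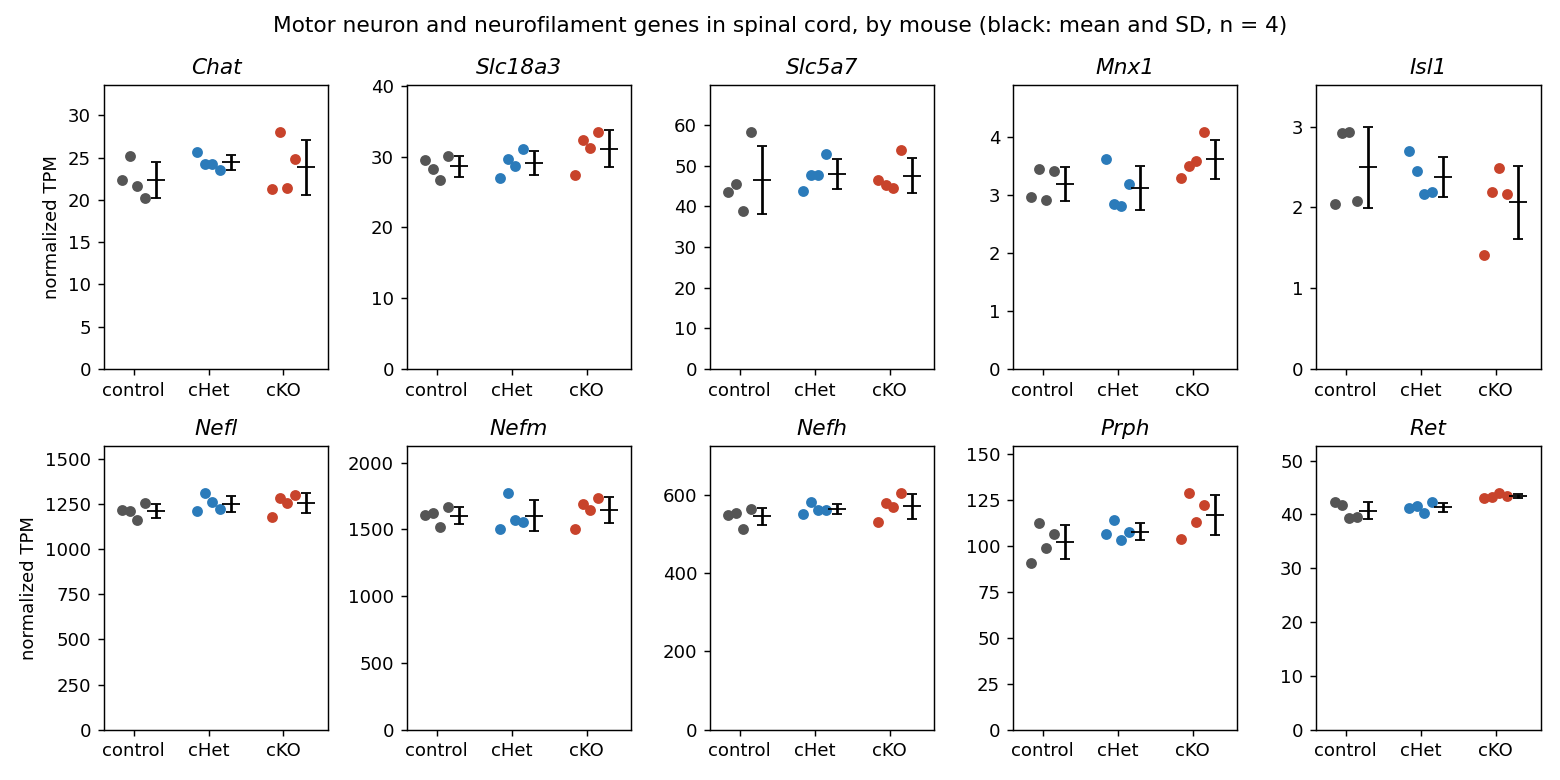
Normalized TPM (vertical axis, from 0) of each gene in the 4 control, 4 cHet and 4 cKO mice (1 point a mouse; black bars, mean and SD). The points of most genes overlap between genotypes, while all 4 cKO points of Ret lie above the others.

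None of the cholinergic genes was called between genotypes. Differences were tested with limma on log2(TPM + 0.5) across all 15259 genes, and a gene is called at a Benjamini-Hochberg adjusted p under 0.05. Chat, the enzyme gene, had 22.4, 25.2, 21.7 and 20.2 TPM in control replicates 1 to 4, 25.7, 24.2, 24.3 and 23.5 in cHet, and 21.2, 28.0, 21.4 and 24.8 in cKO. The highest and the second lowest values were both from cKO mice, and all groups overlapped. The difference of cKO from control was 6.15% (95% interval from -7.00% to 21.2%; limma adjusted p = 0.624; exact permutation p = 0.514), and that of cHet from control 9.33% (-4.22% to 24.8%; adjusted p = 0.626). Without cKO replicate 2, the highest mouse, the difference of cKO from control was 0.507%, and without control replicate 2 it was 10.5%.

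Slc18a3, the vesicular transporter gene, had 29.5, 28.2, 26.7 and 30.03 TPM in control, 27.0, 29.6, 28.6 and 31.1 in cHet, and 27.4, 32.4, 31.3 and 33.4 in cKO. Of the cKO mice 3 lay above every control and the fourth lay among the lowest of all. The difference of cKO from control was 8.49% (-1.67% to 19.7%; limma adjusted p = 0.321; exact permutation p = 0.143). Slc5a7, the choline transporter gene, had 43.5, 45.4, 38.9 and 58.3 TPM in control, 43.8, 47.7, 47.7 and 52.9 in cHet, and 46.5, 45.3, 44.6 and 54.0 in cKO. Both the lowest and the highest mouse were controls. The difference of 3.15% between cKO and control (-12.3% to 21.3%; limma adjusted p = 0.859) changed sign without control replicate 3 or cKO replicate 4.

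The homeodomain genes, both near the expression minimum, were not called either. Mnx1 had 2.97, 3.46, 2.91 and 3.42 TPM in control, 3.63, 2.86, 2.82 and 3.20 in cHet, and 3.29, 3.51, 3.58 and 4.09 in cKO. Of the cKO mice 3 were above every control, and the groups overlapped. The difference of cKO from control was 11.6% (-4.08% to 29.7%; limma adjusted p = 0.395). Isl1 had 2.04, 2.93, 2.93 and 2.08 TPM in control, 2.70, 2.46, 2.16 and 2.20 in cHet, and 1.42, 2.19, 2.48 and 2.17 in cKO. It was the only one of the 10 with a lower mean in cKO than in control, its lowest value being that of cKO replicate 1. The difference was -14.6% (-32.6% to 8.15%; limma adjusted p = 0.437), and without that mouse it was -6.33%. In the authors' deposited table for this comparison, the technical variance of Isl1 was 98.8% of its observed variance and that of Mnx1 62.1%, against 0.355% to 0.835% for the neurofilament chains.

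The neurofilament chains were the most evenly expressed of the group beside Ret. Nefl, the light chain, had 1218, 1211, 1161 and 1256 TPM in control, 1213, 1312, 1263 and 1224 in cHet, and 1176, 1284, 1256 and 1302 in cKO. Nefm, the medium chain, had 1604, 1619.7, 1517 and 1670.5 in control, 1504, 1772, 1572 and 1558 in cHet, and 1505, 1690.0, 1645 and 1735 in cKO. Nefh, the heavy chain, had 547, 554, 512 and 564 in control, 549.8, 580.0, 560.1 and 559.5 in cHet, and 529, 578, 568 and 604 in cKO. In each of the chains the lowest control was replicate 3, the lowest cKO mouse was replicate 1 and the groups overlapped. The differences of cKO from control were 3.50% for Nefl (-2.30% to 9.65%; limma adjusted p = 0.494), 2.48% for Nefm (-5.77% to 11.4%; adjusted p = 0.773) and 4.62% for Nefh (-1.72% to 11.4%; adjusted p = 0.396). Leaving out 1 mouse at a time gave 2.06% to 5.72% for Nefl, 0.606% to 5.49% for Nefm and 2.54% to 7.20% for Nefh, each highest without cKO replicate 1; the lowest came without control replicate 3 for Nefl and Nefh and without cKO replicate 4 for Nefm. By the intervals with all mice a loss of more than 5.77% in cKO was outside the 95% interval for each chain under the deposited scaling.

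The make-up of the filament RNA was nearly constant. Of the summed TPM of the 3 chains, Nefm made up 47.7% ± 0.167 for control, 46.8% ± 1.05 for cHet and 47.4% ± 0.351 for cKO (SD over 4 mice). Nefl made up 36.1% ± 0.267, 36.7% ± 0.643 and 36.2% ± 0.362, and Nefh 16.2% ± 0.134, 16.5% ± 0.452 and 16.4% ± 0.136, in the same order. The ratio of Nefl to Nefh lay between 2.16 and 2.27 in all 12 mice. That of Slc18a3 to Chat varied more, from 1.05 to 1.48. These are descriptions, and the share of Nefm and Nefl rests on how reads of their overlap were divided.

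Peripherin and Ret were the 2 genes with an unadjusted limma p under 0.05 between cKO and control, as were 22.8% of all genes. Prph, a filament gene of neurons that send axons out of the cord, had 90.9, 112.6, 98.9 and 106.6 TPM in control, 106.7, 114.1, 103.5 and 107.4 in cHet, and 103.6, 128.9, 112.9 and 122.4 in cKO. Of the cKO mice 3 lay above every control and 1 among them. The difference of cKO from control was 14.3% (2.20% to 27.8%; unadjusted p = 0.0231, limma adjusted p = 0.138; exact permutation p = 0.114), and without control replicate 1, the lowest mouse, it was 0.14 on the log2 scale (adjusted p = 0.299) in place of 0.19. Against cHet it was 8.02% (-3.39% to 20.8%; limma adjusted p = 0.482).

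Ret, the GDNF family receptor gene, had 42.2, 41.7, 39.3 and 39.5 TPM in control, 41.1, 41.5, 40.2 and 42.3 in cHet, and 43.0, 43.3, 44.0 and 43.4 in cKO. All 4 cKO mice lay above all 8 others, by a small margin, with a coefficient of variation of 0.902% in cKO. Of all genes 10.5% were likewise higher in cKO with no overlap with control, 17.1% did not overlap in either direction, and 6.14% were higher with no overlap with cHet (11.5% in either direction). Between cHet and control the groups overlapped for all 10 genes, where 4.12% of all genes were higher without overlap and 6.23% in either direction. The difference of cKO from control was 6.64% (1.43% to 12.1%; unadjusted p = 0.0161, limma adjusted p = 0.109; exact permutation p = 0.0286, the smallest that 4 against 4 can give), and that from cHet 5.09% (-0.0399% to 10.5%; adjusted p = 0.280). With library totals made equal after leaving out mitochondrially encoded genes, the difference from control was 2.85% and the groups overlapped. With values taken relative to 12 pan-neuron genes it was 2.28%, again with overlap. Of these 12 genes 2, Rbfox3 and Syn1, were themselves called higher in cKO than in control. The median log2 difference of the 12 was 0.03, against 0.01 for all genes.

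Across the set, limma called 0 of the 10 genes between cKO and control, where it called 9.0% of all genes (1374 of 15259, 878 higher and 496 lower). It called 0 of 10 between cKO and cHet, where it called 5.01% of all genes (367 higher and 398 lower, and 18.2% had an unadjusted p under 0.05), and 0 of 10 between cHet and control, where it called 0.0% (11.3% of all genes had an unadjusted p under 0.05). These comparisons share mice and are not independent of each other. Between cKO and control 9 of the 10 differences were above 0, as were 54.2% of all genes, and their median was 0.08 on the log2 scale against 0.01 for all genes. Between cHet and control 7 of 10 were above 0 (55.2% of all genes), and between cKO and cHet 7 of 10 (52.0%).

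That direction moved with the scaling of the libraries. Between cKO and control 9 of 10 differences were above 0 after median-of-ratios scaling, but 6 of 10 with equal totals without mitochondrially encoded genes and 6 of 10 relative to pan-neuron genes, with Slc5a7, Nefm and Nefl below 0 in both. Between cHet and control it was 3 of 10 with equal totals. The split of called genes moved too, to 699 higher and 575 lower, 473 higher and 822 lower, and 393 higher and 762 lower under the 3 scalings in that order. Between cKO and cHet it was 224 higher and 513 lower relative to pan-neuron genes. In whole cord, fewer cells of a type and less RNA per cell cannot be told apart.

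**Figure D2:**
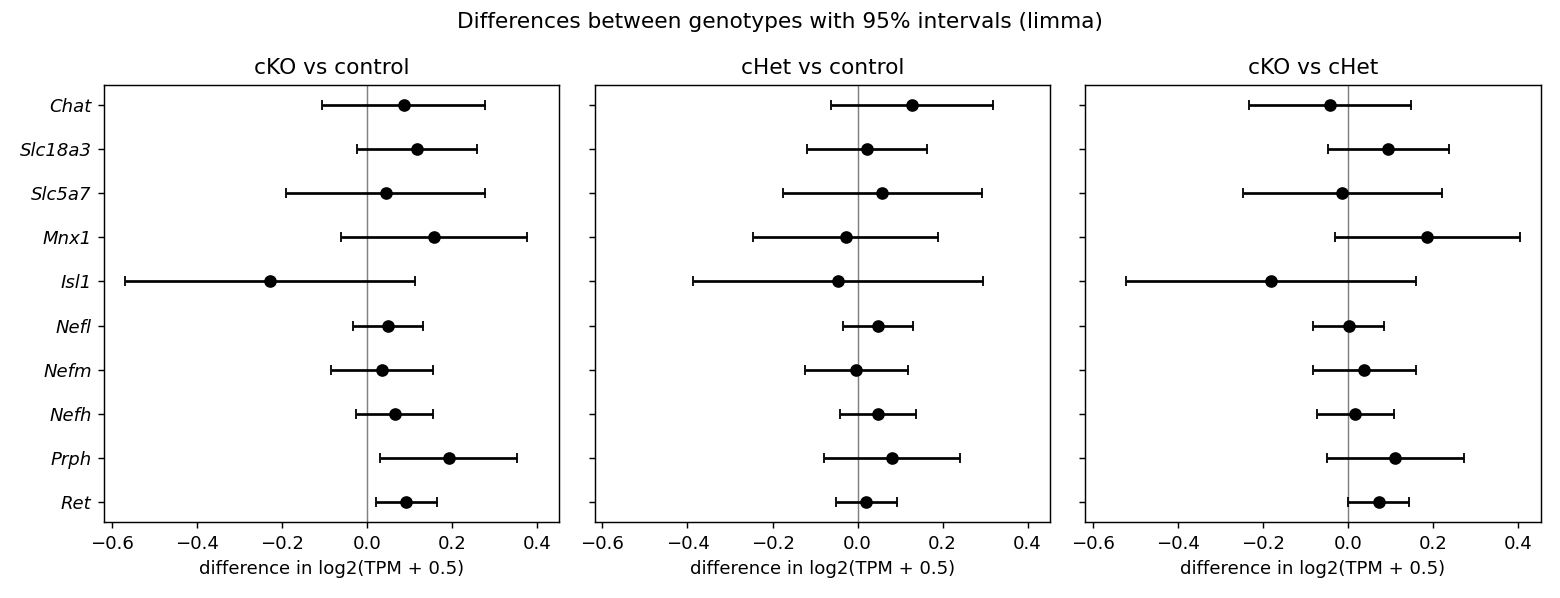
Difference in mean log2(TPM + 0.5) between genotypes for each gene (horizontal axis; points, limma estimates; bars, 95% intervals). All intervals include 0 except those of Prph and Ret for cKO against control, and intervals are narrowest for Ret and widest for Isl1.

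The authors' own tests differed from this on a single gene. In the authors' deposited table for cKO against control, Ret had a q-value of 0.0304 by the likelihood ratio test and 0.0217 by the Wald test, with a higher level in cKO. Such q-values under 0.05 were held by 9.42% and 10.2% of the genes in that table. No other gene of the 10 had a q under 0.05 in the authors' deposited tables; the next smallest for cKO against control was that of Nefl by the likelihood ratio test, 0.0763, and by the Wald test Nefl had 0.370. For cKO against cHet the authors' deposited table held 3.78% of genes with a likelihood ratio q under 0.05 and 4.94% by the Wald test. For cHet against control the authors' deposited table held 0.0% of genes with a likelihood ratio q under 0.05 and 0.156% by the Wald test.

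The spread between mice of a genotype differed widely among the genes. The residual SD on the log2 scale was 0.0357 for Ret, lower than that of all but 2.42% of genes, 0.0547 for Nefl, 0.0606 for Nefh and 0.0854 for Nefm. It was 0.0964 for Slc18a3, 0.116 for Prph, 0.126 for Mnx1, 0.135 for Chat, 0.171 for Slc5a7 and 0.224 for Isl1, against a median of 0.107 over all genes.

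Of 22 tested among 24 other motor neuron identity genes, 2 rose and 0 fell in cKO against control, a share close to the 9.0% of all genes that were called. Of these 22 differences 18 were above 0 (median 0.08), against 54.2% of all genes, but 14 of 22 were with equal totals and 13 of 22 relative to pan-neuron genes. Prkcd, which encodes protein kinase C delta, rose from 21.4 ± 2.80 to 30.6 ± 2.54 TPM (SD, n = 4; limma adjusted p = 0.00510). Esrrg, a nuclear receptor gene that marks gamma motor neurons in the mouse, rose from 30.1 ± 0.588 to 33.6 ± 1.21 TPM (adjusted p = 0.0177); this call was lost with equal totals, relative to pan-neuron genes and without cKO replicate 2, with an adjusted p of up to 0.233. Its level in cHet was 33.0 ± 0.568 TPM, 0.13 above control on the log2 scale (unadjusted p = 0.00309, limma adjusted p = 0.225), and cKO was not called as differing from cHet (0.03; adjusted p = 0.782), whereas Prkcd was (0.46; adjusted p = 0.0118). Of 12 tested among 14 genes of injured motor neurons, 1 rose and 0 fell. It was Hspb1, a small heat shock protein gene that astrocytes can also express, from 50.1 ± 2.82 to 66.2 ± 4.29 TPM (adjusted p = 0.00244), with 57.5 ± 4.46 in cHet, from which cKO was not called as differing (adjusted p = 0.0965).

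Around the acetylcholine synthesis genes, 2 of 14 tested genes of acetylcholine handling and receptors fell and 0 rose, where 9.0% of all genes were called, 878 higher and 496 lower. Slc44a1, a choline transporter gene, fell from 109.7 ± 3.71 TPM in control to 89.2 ± 3.98 in cKO (limma adjusted p = 0.00273). Bche, which encodes butyrylcholinesterase, fell from 4.35 ± 0.717 to 2.62 ± 0.174 TPM (adjusted p = 0.00751). Around Ret, 2 of 9 tested GDNF family genes rose and 1 fell, beside the same 9.0% of all genes; over the alternatives 0 to 2 rose and 1 fell. Nrtn, which encodes the ligand neurturin, rose from 4.58 ± 0.939 to 6.64 ± 0.700 TPM (adjusted p = 0.0249), and Dok5, an adaptor of Ret signalling, from 16.1 ± 0.989 to 18.8 ± 1.11 (adjusted p = 0.0407). Ncam1, an adhesion molecule that can serve as a GDNF receptor, fell from 168 ± 5.33 to 138 ± 12.4 TPM (adjusted p = 0.0116). Of 23 alternatives, 17 called Nrtn and 12 called Dok5. Against cHet, cKO was called for Slc44a1, Bche, Nrtn and Ncam1 in the same directions but not for Dok5 (adjusted p = 0.346). Gdnf itself had a mean of 0.0929 TPM over 12 mice and was not tested, whereas the co-receptor genes Gfra1 and Gfra4 had 51.7 and 38.6 TPM.

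Around the neurofilament chains, 2 of 22 other filament, tubulin and axon cytoskeleton genes rose and 3 fell, where 9.0% of all genes were called. This split moved with the scaling, to 1 higher and 8 lower with equal totals and 1 higher and 7 lower relative to pan-neuron genes. With sex as a covariate 4 were higher and 4 lower. Ina, the gene of alpha-internexin, which joins the chains in neurofilaments, rose by 0.13 ± 0.04 (SE) on the log2 scale (limma adjusted p = 0.0352); it falls outside the rule for named genes and was picked after its value was seen, and its call was lost in 12 of 23 alternatives. Tubb2a, a beta-tubulin gene, rose from 458 ± 13.3 to 511 ± 12.1 TPM (adjusted p = 0.0105). Stmn4, of the stathmin family of tubulin-binding proteins, fell from 411 ± 13.1 to 319 ± 13.1 TPM (adjusted p = 0.000634), Mapt, the tau gene, from 195 ± 2.82 to 176 ± 5.40 (adjusted p = 0.00435) and Tubb4a, another beta-tubulin gene, from 752 ± 40.8 to 650.2 ± 19.3 (adjusted p = 0.0220). Of 12 axonal transport motor genes 0 were called (9.0% of all genes); the smallest adjusted p was 0.0750, for the dynein heavy chain gene Dync1h1. The call of Tubb4a was lost in 5 of 23 alternatives. Against cHet, Tubb2a, Stmn4 and Mapt were called in the same directions, and Ina and Tubb4a were not (adjusted p = 0.243 and 0.116). In the same libraries 7 of 10 oligodendrocyte genes fell in cKO against control, and the 10 had a median log2 difference of -0.37. Which cells of the cord gave the changes in these cytoskeleton genes, or in Slc44a1 and Bche, was not tested.

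Genes of other cells and other neurons were followed in the same libraries, where 9.0% of all genes were called. Of 12 pan-neuron genes 2 rose and 0 fell. Rbfox3 rose by 0.21 ± 0.03 and Syn1 by 0.20 ± 0.04 on the log2 scale (SE, limma adjusted p = 0.00285 and 0.00900). Of 17 tested spinal interneuron genes 2 rose, Slc32a1 and Lbx1, both no longer called with equal totals or relative to pan-neuron genes. Of 23 alternatives, 14 called Slc32a1 and 13 called Lbx1. Over the alternatives 2 to 3 pan-neuron genes and 0 to 4 interneuron genes were called higher. Of 10 oligodendrocyte genes 7 fell, with a summed level of 21077 to 22075 TPM in control, 21085 to 25032 in cHet and 17513 to 19940 in cKO, and of 10 microglia genes 7 rose, with a summed level of 319 to 329 TPM in control, 327 to 353 in cHet and 413 to 447 in cKO. Over the alternatives 4 to 9 of the microglia genes were called higher, the fewest relative to pan-neuron genes, and 6 to 9 of the oligodendrocyte genes lower. Of 10 astrocyte genes 3 rose and 3 fell (summed 4291 to 4512 TPM in control, 4409.6 to 4704 in cHet and 4605 to 5097 in cKO), with 2 to 5 higher and 2 to 3 lower over the alternatives. The part of these cells in the values of the 10 genes was not tested.

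Neurons of sensory ganglia, which can cling to dissected cord, also make Prph, Ret, Isl1 and the neurofilament chains. Of 12 sensory ganglion genes 3 passed the minimum of 1 TPM, and 0 were called between cKO and control, where 9.0% of all genes were called. Scn10a was listed at 0 in 5 of 12 mice and Mrgprd in 9. The summed level of the 12 was 53.3 to 140.4 TPM in control, 69.2 to 128 in cHet and 89.2 to 129 in cKO, most of it Calca, which motor neurons also express. Of 10 Schwann cell genes 6 were tested, and 1 rose (Fxyd1) and 1 fell (Pmp22), beside the same 9.0% of all genes. The summed Schwann cell list was 408 to 451 TPM in control, 415 to 458 in cHet and 461 to 485 in cKO. Of 9 skeletal muscle genes 3 were tested and 0 were called, again beside 9.0% of all genes, with Myh4 listed at 0 in 4 mice. Their part in the values of the 10 genes was not tested.

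Hox genes, whose expression follows position along the cord, were followed as markers of the levels sampled. Of 8 thoracic Hox genes 1 was called in cKO against control, where 9.0% of all genes were called. It was Hoxb8, which rose from 171 ± 4.89 to 198 ± 5.75 TPM (SD, n = 4, limma adjusted p = 0.00227). Of 9 cervical and 8 tested lumbosacral Hox genes 0 were called. Summed cervical Hox levels were 199.7 to 207 TPM in control, 193 to 230.0 in cHet and 214 to 233 in cKO. Summed thoracic Hox levels were 513 to 523 TPM in control, 520.2 to 559 in cHet and 549 to 583 in cKO, and lumbosacral levels 83.0 to 109, 86.1 to 110.3 and 103 to 108.4. Control and cKO did not overlap for the cervical and the thoracic sums and overlapped for the lumbosacral sum. These sums carry the deposited scaling, under which library totals and 17.1% of single genes did not overlap between control and cKO either. The median log2 difference was 0.13 for cervical, 0.11 for thoracic and 0.14 for lumbosacral Hox genes. With equal totals without mitochondrially encoded genes it was 0.08, 0.06 and 0.09. Their part in the values of the 10 genes was not tested.

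Although genotypes differed little, several of the genes varied together from mouse to mouse. Over 12 mice 38 of the 45 pairs had a positive Pearson's r on log2(TPM + 0.5). For 5 pairs the permutation p passed Benjamini-Hochberg adjustment over the 45 (100000 resamples, two-sided), and with Spearman's rho it was 7. Such counts were not made for pairs of other genes, so whether they are particular to this set was not tested. The 3 pairs of neurofilament chains were among the 5 that passed with Pearson's r. Nefh and Nefl had r = 0.94 (permutation p = 1e-05, the smallest the resamples can give, adjusted p = 0.00045; rho = 0.94), and without the 2 mice farthest on the x axis r = 0.94. Nefm and Nefl had r = 0.88 (permutation p = 0.00025, adjusted p = 0.00551; rho = 0.82), and 0.79 without the 2 farthest. Nefh and Nefm had r = 0.83 (permutation p = 0.00049, adjusted p = 0.00551; rho = 0.87), and 0.84 without the 2 farthest. The value for Nefm and Nefl includes the reads of the exonic bases they share.

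Among the cholinergic genes, Slc18a3 passed with 2 of the filament chains. Slc18a3 and Nefh had r = 0.84 (permutation p = 0.00044, adjusted p = 0.00551; rho = 0.84; 0.70 without the 2 farthest mice), and Slc18a3 and Nefl r = 0.75 (permutation p = 0.00528, adjusted p = 0.0475; rho = 0.76; 0.59 without the 2 farthest). Chat and Slc18a3, nested at the same locus, had r = 0.25 (permutation p = 0.439, adjusted p = 0.588; rho = 0.11), and 0.09 without the 2 farthest. Chat and Slc5a7 had r = -0.12 (permutation p = 0.710, adjusted p = 0.817; rho = -0.10; 0.39 without the 2 farthest), and Slc5a7 and Slc18a3 r = 0.55 (permutation p = 0.0603, adjusted p = 0.181; rho = 0.50; 0.53 without the 2 farthest). The difference between these correlations was not tested.

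Taking out the genotype means changed little for the filament chains. On values centred on the genotype mean, with all 13824 reorderings within genotypes, 4 of 45 pairs passed the adjustment. They were Nefm with Nefl (r = 0.96), Nefh with Nefl (r = 0.93), Nefh with Nefm (r = 0.89) and Slc18a3 with Nefh (r = 0.85, adjusted p = 0.0480), whereas Slc18a3 with Nefl had r = 0.78 (adjusted p = 0.145). With equal totals without mitochondrially encoded genes, r was 0.91 for Nefh and Nefl and 0.80 for Slc18a3 and Nefh. All values of a mouse share the scaling of its library, and 4 pairs passed under median-of-ratios scaling and with equal totals. Without control replicate 1, the library labelled male, 8 pairs passed.

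**Figure D3:**
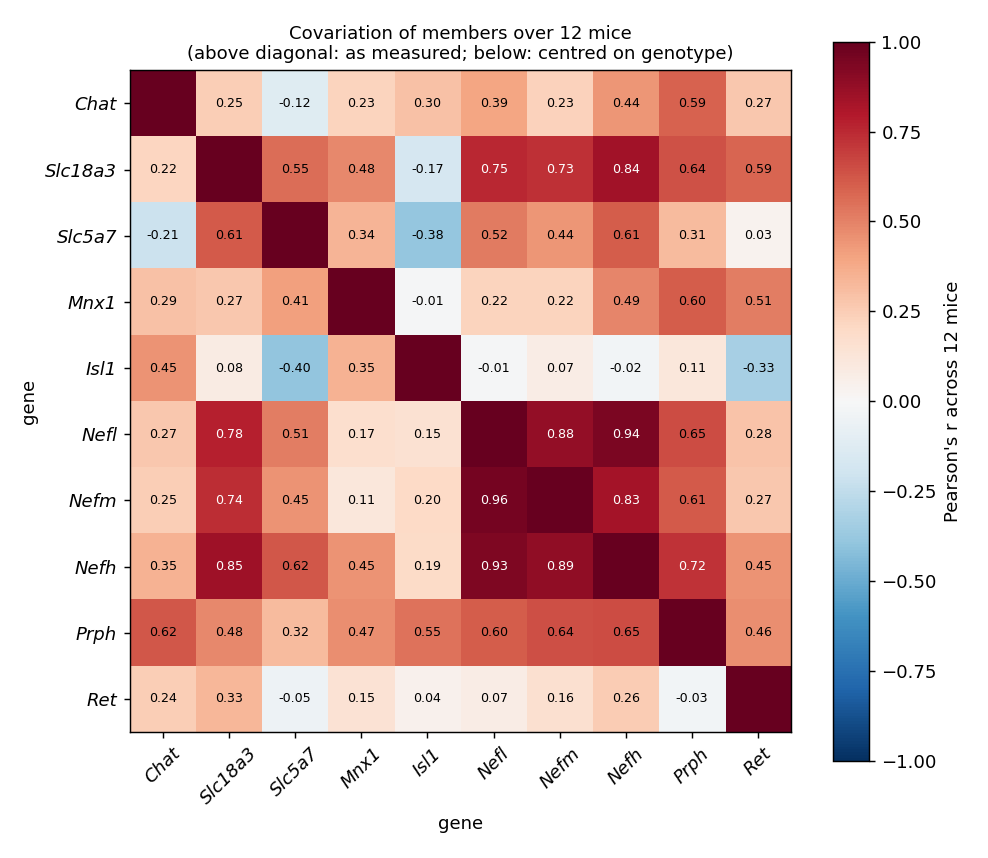
Pearson's r between genes over 12 mice (both axes, genes; colour, r), as measured above the diagonal and centred on genotype below it. The 3 neurofilament chains form a block with r from 0.83 to 0.96, to which Slc18a3 is joined, while Chat and Slc5a7 have r = -0.12.

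**Figure D4:**
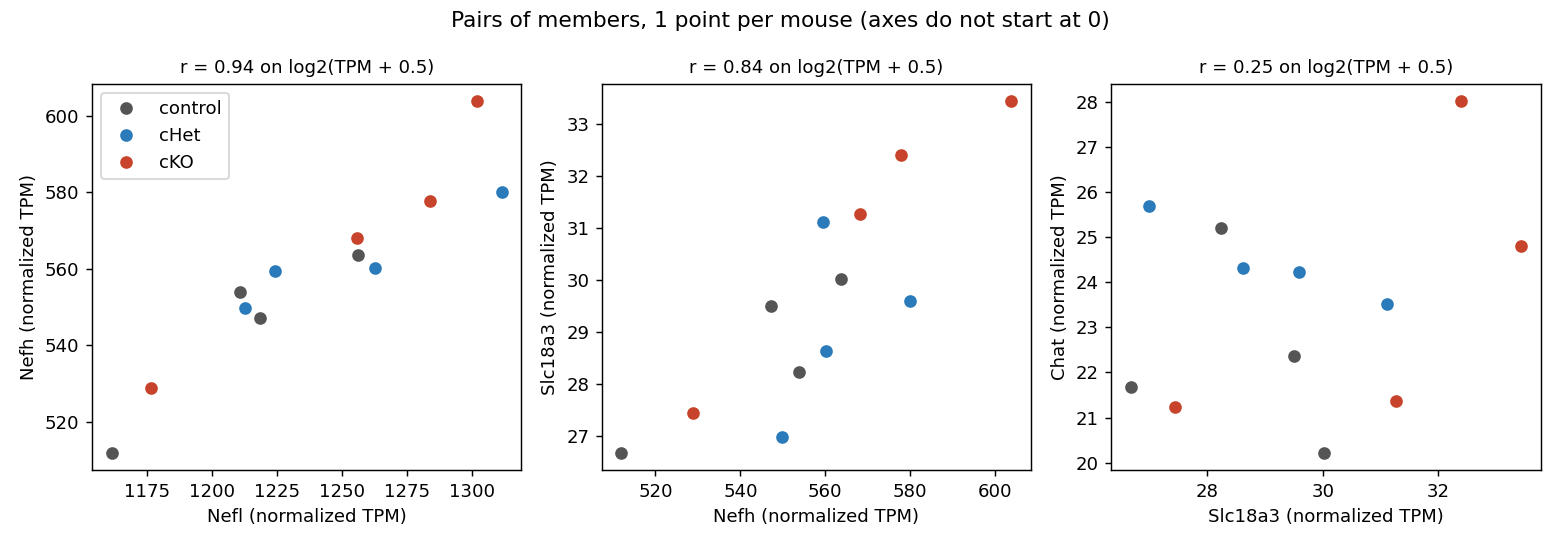
Normalized TPM of 3 pairs of genes, 1 point a mouse coloured by genotype (axes do not start at 0). Nefh follows Nefl closely (r = 0.94) and Slc18a3 follows Nefh (r = 0.84), whereas Chat is spread at any level of Slc18a3 (r = 0.25).

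Among 11837 other genes whose mean reached 5 TPM, those most like each set were named by Pearson's r over 12 mice on genotype-centred values, as a description with no test. Closest to the mean of Chat, Slc18a3 and Slc5a7 were Ahnak2 (r = 0.95, 35.6 TPM), Pde4dip (r = 0.90), Fasn (r = 0.89), Anxa2 (r = 0.88) and Nova2 (r = 0.87). Ahnak2 was itself in the list of motor neuron identity genes. On these centred values r was -0.21 for Chat and Slc5a7, 0.22 for Chat and Slc18a3 and 0.61 for Slc5a7 and Slc18a3. The mean of these genes is therefore not a pattern shared by all 3. Closest to the mean of the neurofilament chains were Cops7a (r = 0.94), Stmn2 (r = 0.93, 344 TPM), Pcdh17 (r = 0.91), Hoxb8 (r = 0.91) and Sncg (r = 0.89). Stmn2 encodes a neuronal stathmin and Sncg gamma-synuclein, and Hoxb8 is the thoracic Hox gene that was called higher in cKO.

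Between the labelled sexes, limma with genotype in the model called 0 of the 10 genes, as it called 0.0% of all genes (5.91% had an unadjusted p under 0.05). The difference of males from females was above 0 for 9 of the 10, and for 50.2% of all genes. It was also above 0 for 11 of 12 pan-neuron genes and 15 of 17 spinal interneuron genes. For other motor neuron identity genes it was above 0 in 10 of 22, and for oligodendrocyte genes in 1 of 10. For lumbosacral Hox genes it was above 0 in 8 of 8, with a median of 0.21 on the log2 scale, against 0.00044 for all genes. The part of cord level or of other cells in the differences by sex was not tested. Chat had the smallest p of the 10 motor neuron and neurofilament genes. In labelled males it had 22.4, 25.2, 25.7, 24.2, 28.0 and 24.8 TPM, and in females 21.7, 20.2, 24.3, 23.5, 21.2 and 21.4, in the order control, cHet, cKO. Both labelled males were above both females in control and in cKO, and in cHet the values were interleaved. In control, 1 of these labelled males is control replicate 1, whose Y-linked genes were at the level of the females. Mean TPM was 25.0 ± 1.85 in males and 22.1 ± 1.54 in females (SD, n = 6). The limma difference was 13.2% (4.66% to 22.5%, unadjusted p = 0.00519, limma adjusted p = 0.687, exact permutation within genotype p = 0.0185). Without control replicate 1 it was 14.9% (5.74% to 24.8%; adjusted p = 0.822).

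For Prph the result rests on that library. With all mice the males had a mean of 112.6 ± 13.2 TPM and the females 105 ± 4.68 (SD, n = 6). The limma difference was 6.14% (-2.76% to 15.9%, limma adjusted p = 0.889, exact permutation p = 0.222). Without control replicate 1, which was the lowest of all 12 mice for Prph, it was 10.04% (3.35% to 17.2%; unadjusted p = 0.00678, adjusted p = 0.822; exact permutation p = 0.0185). In that fit 0.0655% of all genes, 10 in number, were called between the sexes, and 0 of the 10 motor neuron and neurofilament genes were among them (5.6% of all genes had an unadjusted p under 0.05). The differences of the other 8 genes by sex lay between -2.67% for Slc5a7 and 8.43% for Isl1 with all mice. The difference of cKO from control was not called as differing between the sexes for any of the 10 (limma interaction, adjusted p rounding to 1 for each; 0.00655% of all genes were called), with 2 mice a cell.

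**Figure D5:**
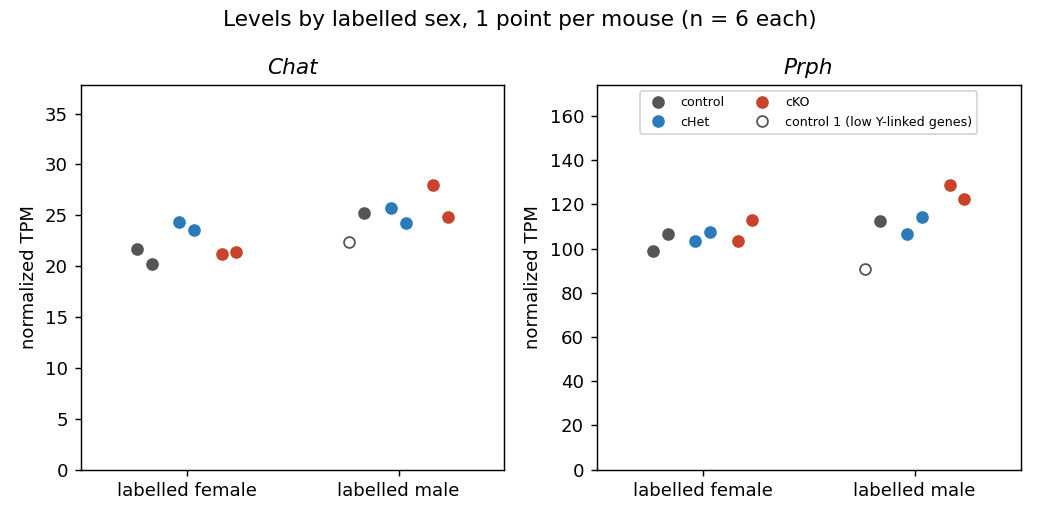
Normalized TPM of Chat and Prph (vertical axis, from 0) by labelled sex, 1 point a mouse coloured by genotype, with control replicate 1 as an open circle. Male means are 13.2% above female means for Chat and 6.14% for Prph, and the open circle is the lowest of the 12 values for Prph.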

How the data were processed

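RNA of whole spinal cord was sequenced from 12 mice. The authors deposited normalized TPM per gene as a signal that is never negative. Kallisto 0.44.0, sleuth 0.30.0 and GRCm38 are named in the submitters' processing notes, with no filter. Library totals differ, so the deposited signal carries a scaling between libraries, and depth is unknown. The authors also deposited, for each pair of genotypes, p-values and q-values of a likelihood ratio and a Wald test. Effect estimates and variance components are deposited there as scores whose log base is not stated; only the sign and the ratio of variances are used.

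Values were taken as log2(TPM + 0.5), which understates changes of low genes. Genes whose mean reached 1 TPM were tested with limma 3.58.1 in R 4.3.3 (all 12 mice in the fit, eBayes with trend, two-sided, Benjamini-Hochberg over all 15259 genes), and percentages are that log2 difference as a fold. Single genes were also tested by exact permutation over 70 assignments, with a smallest p of 0.0286, and correlations by permutation in Python 3.11.15 with numpy 2.4.6. P-values measure the spread between mice. The scripts were tested on simulated data. From each list and comparison up to 4 called genes could be named by adjusted p, or the 2 with the smallest p where none was called. The members and lists were chosen with earlier results of these data known, and counts over them support nothing by themselves. Coordinates are from GENCODE M21 on GRCm38 and promoters from RefSeq GRCm38.p6. Alternatives changed the pseudocount, filter, scaling, model, sex covariate, summing of duplicate rows and the mice left out.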

Additional observations from a re-analysis of the deposited data

How the results depend on the processing

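None of the 10 genes was called in any genotype comparison under any alternative: of 714 values of a gene under an alternative, 674 kept their sign and side of the threshold, 40 changed sign and 0 passed it. No paired analysis was possible because the labels give mouse numbers and no replicate number shared between genotypes. The cause of each change below was not tested.

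On the log2 scale, for cKO against control, equal totals without mitochondrially encoded genes gave -0.0076 for Slc5a7, -0.018 for Nefm and -0.0032 for Nefl, and values relative to pan-neuron genes gave -0.016, -0.025 and -0.011. For cHet against control equal totals gave -0.030 for Slc18a3, -0.0057 for Nefh, -0.0056 for Nefl and -0.032 for Ret. For cKO against cHet median-of-ratios scaling gave -0.0043 for Nefl, and values relative to pan-neuron genes gave -0.023 for Nefh, -0.0013 for Nefm and -0.038 for Nefl.

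Leaving out each mouse in turn gave, for cKO against control, -0.035 to 0.16 for Slc5a7. For cHet against control it gave -0.12 to 0.024 for Isl1, -0.093 to 0.012 for Mnx1, -0.053 to 0.026 for Nefm, -0.022 to 0.17 for Slc5a7 and -0.0099 to 0.057 for Slc18a3. For cKO against cHet it gave -0.017 to 0.032 for Nefl, -0.075 to 0.034 for Slc5a7, -0.12 to 0.0089 for Chat and -0.011 to 0.052 for Nefh. Between the sexes it gave -0.10 to 0.041 for Slc5a7 and -0.00051 to 0.069 for Slc18a3. The sex by genotype difference of Isl1 went from -0.18 to 0.039 without control replicate 1.

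Genes called between cKO and control were 1374 with all mice and 815 to 1513 with a mouse left out (815 without cKO replicate 2, 891 without cKO replicate 4, 907 without control replicate 2). Between cHet and control they were 0 with all mice, 2 with no expression filter and 0 to 1 with a mouse left out. Between the sexes they were 0 with all mice and 0 to 10 with a mouse left out, 10 of them without control replicate 1 and 1 without cKO replicate 1. The interaction called 1 gene with all mice and 0 without control replicate 1. Correlated pairs were 5 with all mice and 4 to 8 with a mouse left out. Isl1 and Mnx1 give no value at a minimum of 5 TPM. TPM keeps no depth, so what depth limits cannot be stated.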
